A study of Mus musculus with 6 samples.

Results

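The genes described here are 10 genes of the canonical Wnt pathway in cultured mouse neural stem cells (NSCs), out of the 53378 genes with a value in every library. They were taken by name and sorted by role: 5 are outputs of the pathway, most of which feed back on it (*Axin2*, *Nkd1*, *Lgr5*, *Rnf43* and *Znrf3*), 4 are the TCF/LEF DNA-binding factors (*Lef1*, *Tcf7*, *Tcf7l1* and *Tcf7l2*) and 1 is *Ctnnb1*, which encodes β-catenin. All 10 had a row in the table, and 8 reached the mean normalized count of 10 that was required for a test. A normalized count is a read count divided by a size factor for its library.

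All cells carried floxed *Tbl1xr1* on both alleles (flox/flox) and came from the cortex of E14.5 embryos, grown as neurospheres with 10 ng/ml bFGF and 10 ng/ml EGF. A lentivirus delivered GFP alone in the control group (replicates 1, 1_1, 2) or Cre with GFP in the other group (replicates 2, 2_2 and 3), and GFP+ cells were sorted. *Tbl1xr1* encodes a subunit of the NCoR/SMRT corepressor complex that has also been tied to transcription by β-catenin, and the comparison asks how the transcriptome differs once Cre has been given. Which embryo or culture each library came from was not given, so the p-values measure the spread between these samples, which may be technical, and an effect of Cre cannot be told apart from a difference between cultures.

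In canonical Wnt signaling, a destruction complex built on AXIN, APC and GSK3 marks β-catenin for degradation until a Wnt ligand binds its receptors. β-catenin then enters the nucleus and binds TCF/LEF factors at target genes, among which *Axin2* is a widely used readout. In the embryonic cortex the pathway is known for its part in the balance between progenitor division and differentiation.

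Of the 10 genes, 1 rose and 1 fell in the libraries labelled Cre. *Tcf7l1*, the TCF factor best known as a repressor, was 1.90-fold as high as in control, with a log2 fold change of 0.92 and an adjusted p = 0.0018. *Axin2* fell by 0.63 on the log2 scale, to 0.642 of its control level, with an adjusted p = 0.0438. *Ctnnb1* and *Tcf7l2*, the other 2 abundant transcripts among the 10, did not pass the test, and neither did *Nkd1*, *Lgr5*, *Znrf3* or *Tcf7*. Over all 14840 genes tested, limma called 4.74% higher and 5.22% lower in the group labelled Cre, beside 1 of the 8 tested genes in each direction.

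The libraries held between 7510615 and 14828100 reads on genes, the median being 7762821 among controls and 12210170 among those labelled Cre. *Tbl1xr1* itself, counted over the whole gene and so not over the floxed exon alone, stood at 2477 ± 268 normalized counts in the controls and 3381 ± 440 in the libraries labelled Cre (mean ± SD, n = 3 each; log2 fold change 0.45, SE 0.14, adjusted p = 0.06), so this count does not check the deletion. The authors report that sorted cells were checked by PCR, RT-qPCR and Western blot for genotype and loss of the mRNA and protein. Whether those checks covered the cultures of these libraries was not stated. All 8 NSC markers were detected and tested, with summed normalized counts of 33050 to 36890 in the controls and 31100 to 33620 in the libraries labelled Cre, with 4 positive and 4 negative log2 fold changes, and 2 of them, *Nes* and *Sox1*, fell. *Sox1* went from 913.2 ± 125.7 in the controls to 190.5 ± 42.9 in those labelled Cre (log2 fold change -2.27, limma adjusted p = 3.66e-05). *Nes* went from 6229 ± 912 to 3435 ± 357 (log2 fold change -0.85, limma adjusted p = 0.00384). Of the NSC markers that did not pass, *Sox2*, *Fabp7*, *Pax6* and *Msi1* had log2 fold changes from 0.03 to 0.38, and *Vim* and *Hes5* had -0.34 and -0.15. Summed astrocyte markers ran from 6072 to 6515 in the controls and from 9054 to 9994 in the libraries labelled Cre, with 2 of 4 tested genes higher (*S100b* and *Aqp4*). *S100b* went from 238 ± 14.7 in the controls to 2064 ± 407 in those labelled Cre (log2 fold change 3.10, limma adjusted p = 7.39e-07). *Aqp4* went from 11.5 ± 2.98 to 38.9 ± 15.6 (log2 fold change 1.64, limma adjusted p = 0.0228). *Slc1a3*, which makes up most of the astrocyte sum (6060 ± 221 and 7408 ± 88.3 in the controls and in those labelled Cre), and *Aldh1l1*, which had a log2 fold change of -1.65 and was lower in each library labelled Cre, did not pass (adjusted p = 0.126 and 0.065). Summed oligodendrocyte lineage markers ran from 4754 to 6017 and from 8653 to 9779, with 3 of 5 tested genes higher (*Olig2*, *Pdgfra* and *Cspg4*). Summed neuron markers ran from 9252 to 9470 and from 10100 to 11330, nearly all of it *Map2* (9210 ± 95.2 and 10540 ± 626, adjusted p = 0.337). Of the 5 tested neuron genes 3 had a positive and 2 a negative log2 fold change. Of these 5, 0 were called by limma, edgeR or DESeq2 and 0 had an unadjusted p under 0.05 in limma. The microglial genes *Aif1*, *Cx3cr1* and *Ptprc* had at most 3 reads in every library (summed list 158 to 204 in the controls and 163 to 267 in the libraries labelled Cre, nearly all of it *Csf1r*, adjusted p = 0.483). The endothelial genes *Cdh5* and *Cldn5* had 0 reads (summed list 22.7 to 39.5 and 11.1 to 13.4), while *Kdr*, the 1 endothelial gene tested, stood at 24.4 ± 9.02 and 8.74 ± 1.71 without overlap (log2 fold change -1.34, adjusted p = 0.0677). The fibroblast gene *Col1a2* had 0 reads (summed list 1.84 to 5.85 and 0.693 to 21.5). The part of these markers in the values of the Wnt genes was not tested, and in bulk RNA fewer cells of a type and less RNA per cell cannot be told apart.

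The sequences just upstream of the start sites of the 2 genes that changed are shown first, because these are the stretches next to which such factors could bind. With them is the 1 *Tcf7l2* window that holds a TCF/LEF-like core, upstream of a second start that lies inside the gene. They are the 250 bases before the start in RefSeq's GRCm38.p6, 5′ to 3′ on the strand of the gene, in lower case with any core match in capitals.
Axin2 (+ strand, chr11:108920099-108920348): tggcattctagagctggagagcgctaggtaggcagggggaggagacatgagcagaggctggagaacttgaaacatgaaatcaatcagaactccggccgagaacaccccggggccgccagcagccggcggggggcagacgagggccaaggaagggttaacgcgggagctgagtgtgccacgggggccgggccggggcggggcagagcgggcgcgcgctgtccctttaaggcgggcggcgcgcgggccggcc
Tcf7l1 (− strand, chr6:72789046-72789295): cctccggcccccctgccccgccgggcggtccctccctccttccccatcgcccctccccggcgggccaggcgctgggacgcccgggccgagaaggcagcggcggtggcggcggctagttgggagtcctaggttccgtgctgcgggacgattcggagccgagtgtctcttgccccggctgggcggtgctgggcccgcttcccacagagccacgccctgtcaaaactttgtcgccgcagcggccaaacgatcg
Tcf7l2, second start (+ strand, chr19:55895071-55895320): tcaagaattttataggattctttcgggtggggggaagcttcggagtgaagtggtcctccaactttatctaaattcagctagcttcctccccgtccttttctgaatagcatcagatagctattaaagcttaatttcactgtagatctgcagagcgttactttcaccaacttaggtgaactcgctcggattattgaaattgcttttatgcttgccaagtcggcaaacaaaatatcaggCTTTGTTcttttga

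The core searched was CTTTG followed by AT, as in the usual TCF/LEF site, or by another pair of A and T bases (AA, TA or TT), on both strands and over 300 bases (250 before to 50 after each start). RefSeq windows were at hand for 8 of the 10 genes, *Lgr5* and *Znrf3* being the others, and made up 15 windows in all. A core was found in 2 of them: the *Tcf7l2* window shown, where CTTTGTT begins 14 bases before the start, and the window of a *Lef1* start inside the gene, where CTTTGTA lies on the opposite strand 147 bases before the start. The *Tcf7l2* start shown is also inside its gene (chr19:55741797-55933659), and the window at the first *Tcf7l2* start held 0 matches. Over all 32851 mouse windows of that length, 3.73% held the form that ends in AT, 5.14% the form in AA, 3.63% the form in TA, 5.85% the form in TT and 16.88% any of the 4. The upstream bases of *Axin2* (69.2% G or C) and *Tcf7l1* (73.6%) held none of these letters in that order, which says nothing of sites elsewhere or of other spellings. The *Axin2* window begins inside the gene as RefSeq draws it (chr11:108917828-108950783), since other transcripts start further upstream, whereas the bases shown for *Tcf7l1* end just before the gene (chr6:72626371-72789045) begins on its strand.

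**Figure D1:**
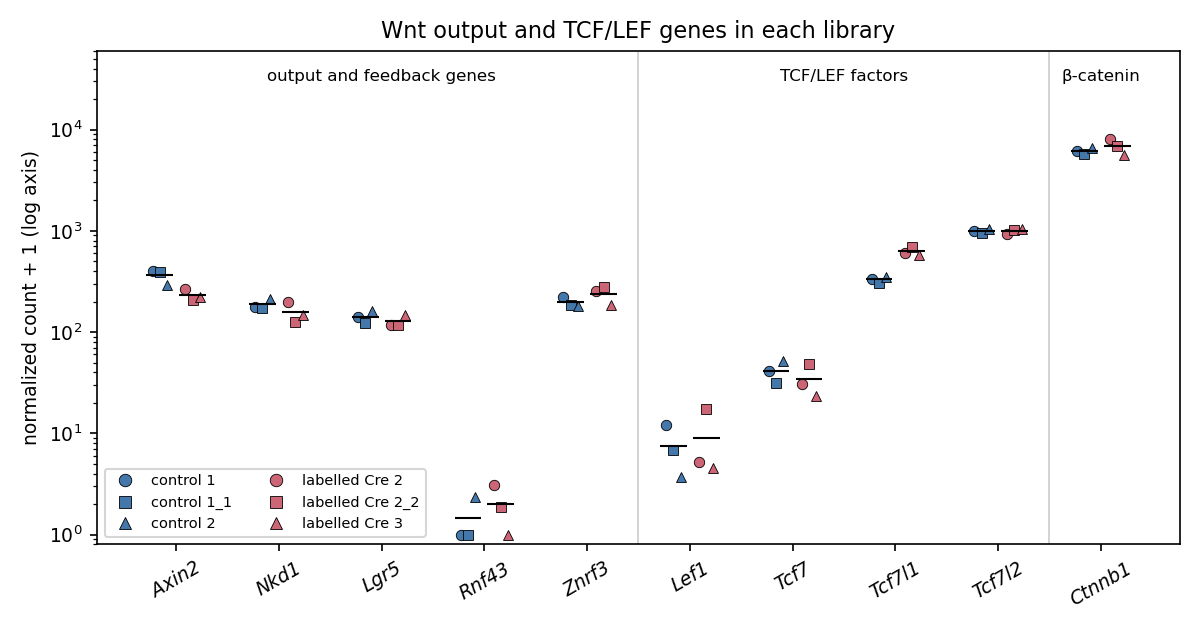
Normalized count plus 1 (log axis) of each of the 10 genes in each library, by role. Blue symbols are the 3 control libraries, red symbols the 3 libraries labelled Cre, and the bars are group means. The groups separate for *Axin2*, where the libraries labelled Cre lie lower, and for *Tcf7l1*, where they lie higher, and *Rnf43* sits at the bottom with 0 to 3 reads per library.

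*Axin2* encodes a scaffold of the destruction complex and is induced by the pathway that it restrains. Its normalized counts were 404, 393 and 288 in the controls (replicates 1, 1_1 and 2, the order used throughout) and 267, 208 and 221 in the libraries labelled Cre (2, 2_2 and 3). Every library labelled Cre was below every control library, but the gap between the groups (20.7 normalized counts) was narrower than the ranges within them (116 in the controls and 59.0 in the libraries labelled Cre). The group means were 362 ± 64.1 and 232 ± 31.0 (SD, n = 3 each), a log2 fold change of -0.63 (SE 0.17, 95% interval -1.01 to -0.25). Non-overlap downwards was seen for 15.5% of all genes tested, and the exact two-sided permutation test of 3 against 3 libraries gave p = 0.1, the smallest that it can give. The call was lost without control replicate 1 (adjusted p = 0.196), control replicate 1_1 (0.153), replicate 2_2 labelled Cre (0.154) or replicate 3 labelled Cre (0.0745), with a log2 fold change between -0.54 and -0.60 in these fits. The adjusted p of *Axin2* ran from 0.0136 to 0.196 over all 17 alternatives, and its log2 fold change from -0.78 to -0.54.

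The other pathway outputs gave no call. *Nkd1* (chr8:88521342-88594887) encodes an inhibitor that binds Dishevelled. Its values were 174, 171 and 213 in the controls and 199, 125 and 147 in the libraries labelled Cre, so the groups overlapped, and its log2 fold change was -0.27 (SE 0.20, 95% interval -0.71 to 0.17, adjusted p = 0.448). *Lgr5* (chr10:115450314-115587780) encodes an R-spondin receptor that marks stem cells in several epithelia. It stood at 139, 123 and 161 in the controls and at 117, 115 and 147 in the libraries labelled Cre, again with overlap and with a log2 fold change of -0.16 (SE 0.19, 95% interval -0.57 to 0.26, adjusted p = 0.654).

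*Znrf3* and *Rnf43* encode the paired membrane E3 ligases that remove Frizzled receptors from the cell surface. *Znrf3* (chr11:5276329-5444847) was at 221, 184 and 180 in the controls and at 253, 278 and 183 in the libraries labelled Cre. The highest control library exceeded the lowest library labelled Cre, and the log2 fold change was 0.27 (SE 0.19, 95% interval -0.14 to 0.68, adjusted p = 0.41). *Rnf43* (chr11:87663087-87735539) had 0, 0 and 1 reads in the controls and 3, 1 and 0 reads in the libraries labelled Cre, which is at or under the floor of 3 reads in every library and allows no fold change. Pooled over each group this is 0.0378 RPM, the reads scaled to library size (exact Poisson 95% interval 0.00096 to 0.211) and 0.103 (0.028 to 0.263), intervals that cover counting error only.

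Over the 4 pathway outputs that were tested, 1 log2 fold change was positive and 3 were negative, with a median of -0.21 beside -0.001 over all genes tested, of which 49.9% were positive. The log2 fold change of *Axin2* lay inside the 95% interval of *Nkd1*, just below that of *Lgr5* and well below that of *Znrf3*. Within each library, the log2 ratio of *Axin2* to *Znrf3* was 0.87, 1.09 and 0.68 in the controls and 0.08, -0.42 and 0.28 in the libraries labelled Cre, without overlap (exact permutation p = 0.1). The log2 ratio of *Axin2* to *Nkd1* was 1.21, 1.20 and 0.43 in the controls and 0.43, 0.73 and 0.59 in the libraries labelled Cre, with overlap (exact permutation p = 0.3), and that of *Axin2* to *Lgr5* overlapped too (exact permutation p = 0.3). In all, 13 such ratios were compared, 7 with *Axin2* and 6 more with *Tcf7l1*, and with 3 libraries against 3 none could reach a p under 0.1. Since *Axin2* and *Tcf7l1* were taken because they were called in the same libraries, their ratios carry those changes and add no support to them.

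**Figure D2:**
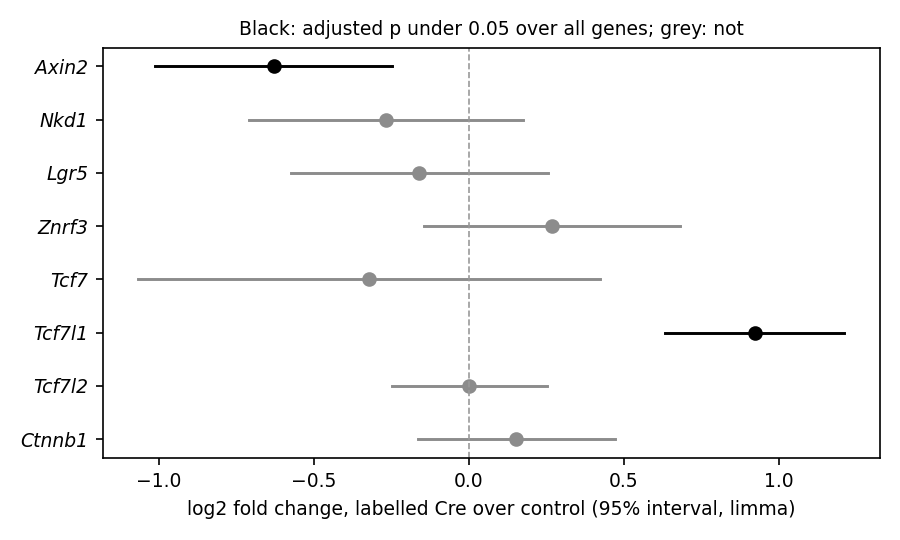
Log2 fold change of each of the 8 tested genes, libraries labelled Cre over control (x axis), with its 95% interval from limma. Black marks an adjusted p under 0.05 over all genes tested and grey the rest: the interval of *Axin2* lies wholly below 0 (-1.01 to -0.25), that of *Tcf7l1* wholly above it (0.63 to 1.21), and the other 6 cross 0.

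Among the TCF/LEF factors, *Tcf7l1* was the one that changed. Its normalized counts were 337, 307 and 347 in the controls and 609, 692 and 581 in the libraries labelled Cre. The lowest library labelled Cre stood 234 normalized counts above the highest control, a wider gap than the ranges within the groups (39.6 in the controls and 111 in the libraries labelled Cre). The means were 330 ± 20.6 and 627 ± 57.8 (SD, n = 3 each), a log2 fold change of 0.92 (SE 0.13, 95% interval 0.63 to 1.21). The exact two-sided permutation test gave p = 0.1, its smallest value, and 14.7% of all genes tested lay without overlap in that direction. *Tcf7l1* was called in all 17 alternatives, with a log2 fold change from 0.85 to 0.97 and an adjusted p from 1.98e-06 to 0.0154. The reads behind it numbered 367, 210 and 260 in the controls and 879, 804 and 649 in the libraries labelled Cre.

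*Tcf7l2* (chr19:55741797-55933659), whose product is also called TCF4 and is the main partner of β-catenin in the intestine, was the most abundant of the family in control. It stood at 986, 957 and 1047 in the controls and at 936, 1028 and 1029 in the libraries labelled Cre. The groups overlapped throughout, and the log2 fold change was 0.0011 (SE 0.11, 95% interval -0.25 to 0.25, adjusted p = 0.997), an interval that leaves out the rise of *Tcf7l1*. The log2 ratio of *Tcf7l1* to *Tcf7l2* in the same library was -1.55, -1.64 and -1.59 in the controls and -0.62, -0.57 and -0.82 in the libraries labelled Cre, a difference of 0.92 without overlap (exact permutation p = 0.1). With *Tcf7l2* flat, this ratio restates the rise of *Tcf7l1* and adds no support to it.

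*Tcf7* (chr11:52246527-52283383), which encodes TCF1, and *Lef1* (chr3:131110297-131224357), which with *Tcf7* is best known from lymphocytes and is itself a Wnt target in many tissues, were scarce. *Tcf7* was at 40.4, 30.7 and 50.7 in the controls and at 29.8, 47.4 and 22.4 in the libraries labelled Cre, with overlap and a log2 fold change of -0.32 (SE 0.34, 95% interval -1.07 to 0.42, adjusted p = 0.606). *Lef1* had 12, 4 and 2 reads in the controls and 6, 19 and 4 reads in the libraries labelled Cre, and its mean was too low for the test. Replicate 2_2 labelled Cre held most of the *Lef1* reads of its group, and without a filter on low values the log2 fold change was 0.15 with an adjusted p = 0.927. A difference in *Lef1* was not detectable at this depth.

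*Ctnnb1* (chr9:120933400-120960507) was the most abundant of the 10. It stood at 6142, 5744 and 6558 in the controls and at 8105, 6938 and 5653 in the libraries labelled Cre. The libraries labelled Cre spread more widely (6899 ± 1226 against 6148 ± 407; SD, n = 3 each), and 1 of them lay below all controls. The log2 fold change was 0.15 (SE 0.14, 95% interval -0.17 to 0.47, adjusted p = 0.559), so neither a small fall nor a moderate rise of the transcript was outside the interval. Against *Ctnnb1* within each library, *Axin2* was lower by 0.78 on the log2 scale, with a difference of log2 ratios of -0.78, and *Tcf7l1* was higher by 0.77, both without overlap (exact permutation p = 0.1 each). Both ratios carry the changes of *Axin2* and *Tcf7l1* already given and add no support to them. These RNA values carry no information on β-catenin protein or its phosphorylation.

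To set the levels of different genes side by side, normalized counts were divided by the exon length of each gene in kilobases. In control the order was *Ctnnb1* (1206 ± 79.7 per kilobase), *Tcf7l2* (114 ± 5.27), *Tcf7l1* (99.4 ± 6.19), *Axin2* (65.7 ± 11.6), *Nkd1* (41.8 ± 5.27), *Znrf3* (24.7 ± 2.87), *Tcf7* (14.6 ± 3.58), *Lgr5* (13.8 ± 1.88), *Lef1* (0.752 ± 0.487) and *Rnf43* (0.0678 ± 0.117). Only *Tcf7* and *Lgr5* were neighbours whose control libraries overlapped. In the libraries labelled Cre *Tcf7l1* (189 ± 17.4 per kilobase) stood above *Tcf7l2* (114 ± 6.13). That order rests on the exon lengths used, 3323 bases for *Tcf7l1* and 8739 for *Tcf7l2*. In normalized counts *Tcf7l2* (997 ± 53.5) stayed above *Tcf7l1* (627 ± 57.8) in these libraries. There *Axin2* (42.2 ± 5.64 per kilobase) overlapped with *Nkd1* (35.2 ± 8.51), as did *Nkd1* with *Znrf3* (30.2 ± 6.28) and *Lgr5* (12.3 ± 1.73) with *Tcf7* (11.9 ± 4.60). The top and the bottom of the order, *Ctnnb1* (1353 ± 241) and *Lef1* (0.928 ± 0.834) above *Rnf43* (0.149 ± 0.159), were the same in both groups.

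The make-up of the TCF/LEF family per kilobase therefore differed between the groups in every library, which restates the values of its members and was not tested again. *Tcf7l1* made up 44.1, 43.3 and 43.0% of the family in the controls and 60.8, 60.4 and 58.1% in the libraries labelled Cre, and *Tcf7l2* made up 49.1, 51.2 and 49.4% and then 35.5, 34.1 and 39.1%. *Tcf7* held 5.16 to 7.49% in the controls and 2.67 to 4.92% in the libraries labelled Cre. *Lef1* held under 1% in each library, between 0.127 and 0.553% in the controls and between 0.137 and 0.548% in the libraries labelled Cre. The ratio of *Tcf7l1* to *Tcf7l2* per kilobase went from 0.871 ± 0.0271 in control to 1.66 ± 0.151 in the libraries labelled Cre (SD, n = 3 each). The size of these shares and of this ratio depends on the exon lengths used.

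**Figure D3:**
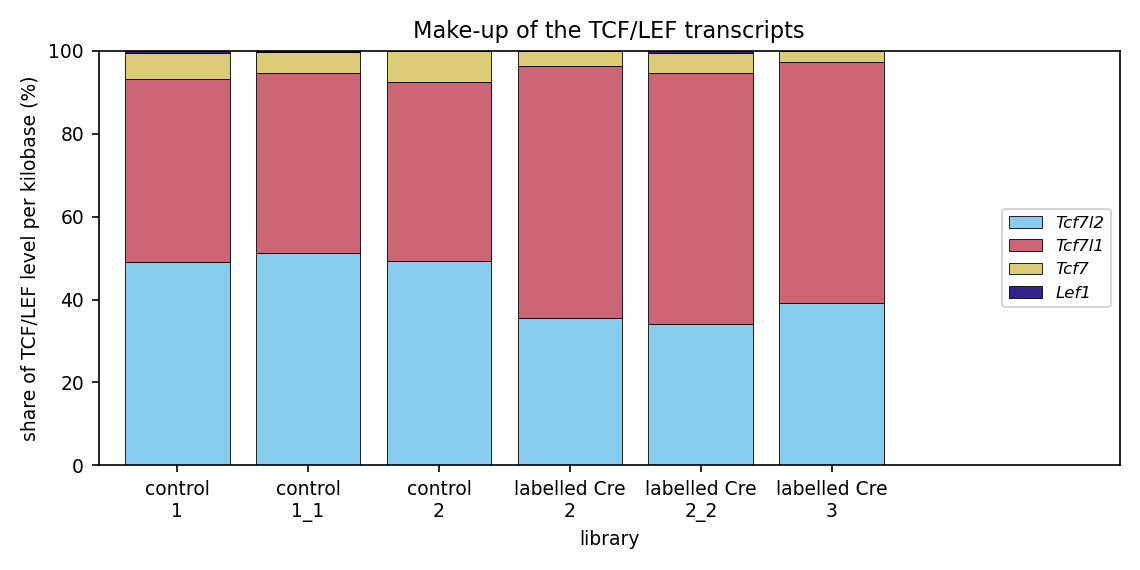
Share of the TCF/LEF family level per kilobase (y axis, %) held by *Tcf7l2*, *Tcf7l1*, *Tcf7* and *Lef1* in each library (x axis). *Tcf7l1* holds 43.0 to 44.1% in the control libraries and 58.1 to 60.8% in those labelled Cre, and *Lef1* is a thin line at the top.

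By role, the outputs, the factors and β-catenin did not move in 1 direction. Of the 3 tested TCF/LEF factors 2 had a positive log2 fold change and 1 a negative one, with a median of 0.001 and a range from -0.32 to 0.92, beside a range from -0.63 to 0.27 in the 4 tested outputs and the single value of 0.15 for *Ctnnb1*. Over all 8 tested genes 4 were positive and 4 negative, with a median of -0.08. As a description of the genes called in opposite directions, the log2 ratio of *Axin2* to *Tcf7l1* was 0.26, 0.36 and -0.27 in the controls and -1.18, -1.73 and -1.39 in the libraries labelled Cre, a difference of -1.55. The ratio of *Axin2* to *Tcf7l2* overlapped between the groups, because control replicate 2 (-1.86) was below replicate 2 labelled Cre (-1.80), and its exact permutation p was 0.2.

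The rest of the pathway was read from 5 further lists, and 3 of their 46 tested genes passed the test, 2 higher (4.35%) and 1 lower (2.17%), beside 4.74% and 5.22% over all genes tested. An unadjusted p under 0.05 was found for 25.5% of all genes tested. Of 18 other canonical target genes 7 were tested, 3 with a positive and 4 with a negative log2 fold change and a median of -0.08, and *Ccnd1* was the single call. Of the 3 with an unadjusted p under 0.05, the other 2 were higher in each library labelled Cre without passing: *Tnfrsf19* (log2 fold change 0.46, adjusted p = 0.119) and *T* (0.69, adjusted p = 0.174). *Ccnd1* encodes cyclin D1, a driver of the G1 phase that responds to growth factor signals as well as to Wnt. Its values were 20874, 16691 and 20483 in the controls and 13070, 14528 and 9165 in the libraries labelled Cre, all lower, with a log2 fold change of -0.68 (SE 0.18, adjusted p = 0.0376). The call was lost without control replicate 1 (adjusted p = 0.16), 1_1 (0.0626) or 2 (0.142), or without replicate 3 labelled Cre (0.0668). *Notum*, *Dkk1*, *Dkk4* and *Cdx1*, which strong Wnt signaling induces in other tissues, had 0 reads in all 6 libraries, and *Cdx2* and *Bmp4* at most 3 in any library.

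Among 11 coactivators of β-catenin, all tested, 8 log2 fold changes were positive and 3 negative, with a median of 0.17 and a range from -0.29 to 0.69. Of these genes 6 had an unadjusted p under 0.05. The list holds the targeted gene *Tbl1xr1* itself (log2 fold change 0.45) and its paralog *Tbl1x* (0.32, adjusted p = 0.0847). Both are among the 8 positive changes and among the 6. By the adjusted p, 2 genes rose. *Pygo1*, whose protein binds the β-catenin adaptor BCL9 and methylated histone H3, was at 399, 372 and 473 in the controls and at 511, 778 and 737 in the libraries labelled Cre, all higher (log2 fold change 0.69, SE 0.17, adjusted p = 0.031). *Bcl9l*, which encodes a paralog of that adaptor, was at 704, 766 and 731 in the controls and at 929, 949 and 1308 in the libraries labelled Cre (log2 fold change 0.52, SE 0.15, adjusted p = 0.0488), again without overlap. Both calls were lost when any control replicate was left out (adjusted p from 0.0594 to 0.126 for *Pygo1* and from 0.108 to 0.182 for *Bcl9l*). They were also lost without replicate 2_2 labelled Cre (0.135 and 0.0882) or replicate 3 labelled Cre (0.0664 and 0.0924).

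In the 3 other lists limma called 0 genes. The 11 genes of the destruction complex, all tested, had 7 positive and 4 negative log2 fold changes with a median of 0.06 and a range from -0.42 to 0.49, and 2 had an unadjusted p under 0.05. Of 12 corepressors and β-catenin antagonists 11 were tested, 7 positive and 4 negative with a median of 0.07 and a range from -0.37 to 0.64, and 4 had an unadjusted p under 0.05. Of 11 receptor-level partners 6 were tested, 3 positive and 3 negative with a range from -0.22 to 0.50 and 1 at an unadjusted p under 0.05, and the ligands *Rspo2* and *Rspo3*, which act on *Lgr5*, *Rnf43* and *Znrf3*, had 0 reads. In these 3 lists edgeR called 0 genes and DESeq2 called 1, the corepressor gene *Tle3*, which is named after its values were seen (log2 fold change 0.58 by limma, adjusted p = 0.0654). Its paralogs did not pass and went both ways in limma. *Tle1* (0.50, adjusted p = 0.0638) and *Tle2* (0.64, adjusted p = 0.156) were positive. *Tle4* was negative (-0.37, adjusted p = 0.0683) and lower in each library labelled Cre.

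**Figure D4:**
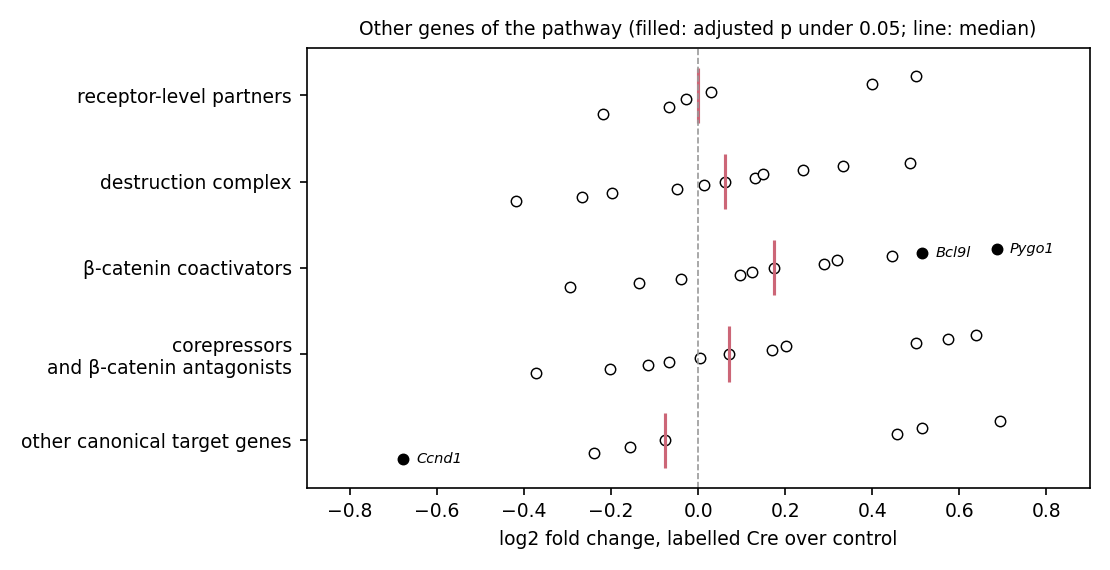
Log2 fold change, libraries labelled Cre over control (x axis), of the tested genes of the 5 further lists (rows). Filled points passed an adjusted p of 0.05, open points did not, and the red line is the median of each list. *Ccnd1* (-0.68), *Bcl9l* (0.52) and *Pygo1* (0.69) are the filled points.

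Genes whose pattern over the 6 libraries was most like that of the 2 genes that changed were taken from 11134 genes with a mean of at least 50, by the root mean square difference of log2 values after each gene's mean was removed. For *Tcf7l1* these were *Ss18l2* (0.0468), *Sgpl1* (0.0595) and *Fnip1* (0.0794), with log2 fold changes of 0.84, 0.86 and 0.87. For *Axin2* they were *Gm6104* (0.0721), *Gm11914* (0.076) and *Zfp143* (0.0812), with log2 fold changes of -0.56, -0.72 and -0.57. Since these genes were picked by likeness over the same libraries, similar fold changes follow from the choice and are no separate result. Names of the form *Gm* followed by digits mark predicted genes, whose reads may be shared with a near-identical copy.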

How the data were processed

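RNA-seq of 6 NSC libraries (TruSeq RNA Library Prep Kit v2), 3 per group per the labels, was analysed. The authors' methods name TopHat with mm9 and mm10, and the submitters' processing notes name STAR 2.7, DESeq2 and mm10. The read counter, strand setting and annotation were not given in the sources used here, so reads of overlapping or antisense genes may be shared. The deposited values are normalized counts, a signal that the authors obtained by dividing read counts by a DESeq2 size factor per library. The same deposited table holds the authors' log2 fold changes with their errors, a score (the test statistic) and p-values, and none of these was used. Of 53379 genes 1 lacked a value and was left out.

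One read was worth 0.693 to 1.46 normalized counts, and 100% of the values came out as whole reads within 0.01. Replicates differed by more than sampling noise. The main test was limma 3.58.1 (R 4.3.3; lmFit, eBayes with trend) on log2(normalized count + 1), for genes with a mean of at least 10, with Benjamini-Hochberg adjustment and a threshold of 0.05. Fold changes on that scale understate those of low genes. Alternatives were edgeR 4.0.16 (quasi-likelihood, TMM; 737 genes called higher and 746 lower) and DESeq2 1.42.0 (874 and 881), both on recovered reads, another pseudocount (0.5 or 5), no filter, a mean of at least 50, TMM and total count scaling, averaging control 1 with 1_1, Cre 2 with 2_2 or both, and leaving out each library. Single values and within-library log2 ratios were given exact permutation tests in scipy 1.17.1. Exon lengths are the union of GENCODE M1 exons (mm9), which bears on levels per kilobase only, and gene positions and promoter sequences are RefSeq's for GRCm38.p6. The fits were tested on simulated reads with the same dispersion for every gene and no differences between cultures. That run checked the code and does not give the error rates in these data.

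The text names the 10 genes, *Tbl1xr1*, the called genes of the other pathway lists, and for each called member the 3 most similar genes. *Tnfrsf19*, *T*, *Tbl1x*, the *Tle* genes and the single marker genes were named after their values were seen. The members, lists and tests were chosen with earlier results of these data known. Figures used matplotlib 3.10.9.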

Additional observations from a re-analysis of the deposited data

How the results depend on the processing

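*Tcf7l1* was the 1 gene of the 10 called higher in every one of the 17 alternatives. The number called lower, 1 (*Axin2*) in the main test, was 0 with control replicates 1 and 1_1 averaged (*Axin2* log2 fold change -0.55, adjusted p = 0.164) and 0 with both pairs averaged (-0.56, adjusted p = 0.134), and ran from 0 to 1 when each library was left out in turn. *Tcf7l2* changed sign around 0: its log2 fold change was -0.017 with the control pair averaged, -0.0047 with both pairs averaged, and -0.0277 to 0.0465 without each library. The other members kept their sign in every alternative in which they were tested. *Tbl1xr1* was called higher by DESeq2 (adjusted p = 0.0398) and without replicate 3 labelled Cre (0.0238). *Ccnd1* was not called without a filter (adjusted p = 0.0512) or with the control pair averaged (0.0931), *Pygo1* with the control pair averaged (0.119), and *Bcl9l* with the control pair (0.136) or both pairs averaged (0.0784). Over all genes, 704 were called higher and 774 lower, against 355 and 306 with the control pair averaged, 450 and 430 with both pairs averaged, and between 313 and 1181 higher and 250 and 1206 lower when a library was left out. The causes were not tested. A fit with a pair averaged or a library left out has fewer samples. No paired analysis was run, because the groups share only 1 replicate number and the labels do not say whether equal numbers mark the same culture. *Lef1* and *Rnf43* are limited by depth.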
